A study of Mus musculus with 4 samples.

Results

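The 10 genes described here were inhibitors of cyclin-dependent kinases (CDKs) and the p53 axis, namely Cdkn2a, Cdkn2b, Cdkn2c, Cdkn1a, Cdkn1b, Trp53, Mdm2, Mdm4, Rb1 and, as the neighbor of Cdkn2a on chromosome 4, Mtap. They were chosen by symbol and not by a limit on a measured value, though with earlier results of these data known, and all 10 were found among the 33565 genes that the files list. RNA was measured in single cells of 3 mouse lines by CapSeq, a split-pool method in which the plate position of the initial barcode (BC1) records the line. Neuro-2a (N2a) is a neuroblastoma line and NIH/3T3 an embryonic fibroblast line, both cultured in DMEM with fetal bovine serum. The mouse embryonic stem cells (mESCs) were of the E14TG2a line and were grown on gelatin with fetal bovine serum, leukemia inhibitory factor, the GSK3 inhibitor CHIR99021 and the MEK inhibitor PD0325901. All were sequenced in 1 library, with 1 culture per line and no replicate, so line, culture medium and culture cannot be told apart and no test between lines was made.

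The INK4 proteins, which include products of Cdkn2a, Cdkn2b and Cdkn2c, bind CDK4 and CDK6 and keep cyclin D from activating them. The CIP/KIP proteins, which include those of Cdkn1a and Cdkn1b, act mainly on cyclin E and cyclin A complexes of CDK2. Active CDKs phosphorylate Rb1, which then releases E2F factors and lets cells enter S phase. Cdkn2a also encodes Arf, which blocks Mdm2, the ubiquitin ligase that with Mdm4 restrains p53, and p53 in turn induces Cdkn1a and Mdm2.

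Barcodes were taken as cells when they held 1000 or more UMIs, of which no more than 20% were mitochondrial. This left 2323 N2a cells, 2037 NIH/3T3 cells and 2137 mESCs. No barcode was shared between lines (0 barcodes), which the split by BC1 fixes in advance. The UMIs of these cells summed to 11697865 in NIH/3T3, 17955221 in N2a and 12322098 in mESCs, with medians per cell of 4863, 6185 and 4803. Levels are counts scaled to 1000000 UMIs per line (CPM) of the summed UMIs, with exact Poisson 95% intervals that cover counting error only. Each line occupied 32 BC1 sequences, and their lowest and highest levels are given as a technical spread. Of the 9 marker genes of the lines, 7 were highest in their own line, namely Hand2 for N2a, Col1a1, Col1a2 and Cav1 for NIH/3T3, and Pou5f1, Zfp42 and Dppa5a for mESCs. Of the other N2a markers, Hand1 had 2 UMIs in N2a and Gata3 was lower in N2a (3.84 CPM) than in mESCs (8.44 CPM).

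The promoter sequences printed here are those of Cdkn2a and Cdkn2b, whose transcripts were at or near 0 in NIH/3T3. Matches to the p53 consensus element near Cdkn1a, Cdkn2b, Ccng1 and Zmat3 are also printed. All are reference sequence, and their relation to the levels was not tested. The promoter sequences were taken from RefSeq (GRCm38.p6), where 9 of the 10 genes had an entry, and were located on GRCm39, the build of the files, by exact match. Rb1 was not matched. The 250 bases before each start are shown 5′ to 3′, with any copy of GGGCGG, searched on both strands, in capitals. Cdkn2a has a pair of starts, of which the upstream one gives Arf and the downstream one Ink4a.
Cdkn2a upstream (Arf) promoter, chr4:89212857-89213106, minus strand: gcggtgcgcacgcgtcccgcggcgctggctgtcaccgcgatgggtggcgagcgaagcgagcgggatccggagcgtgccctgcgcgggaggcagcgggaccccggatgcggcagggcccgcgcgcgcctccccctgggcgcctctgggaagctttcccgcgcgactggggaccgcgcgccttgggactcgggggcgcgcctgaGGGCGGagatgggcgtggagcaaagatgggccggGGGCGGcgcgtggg
Cdkn2a downstream (Ink4a) promoter, chr4:89200430-89200679, minus strand: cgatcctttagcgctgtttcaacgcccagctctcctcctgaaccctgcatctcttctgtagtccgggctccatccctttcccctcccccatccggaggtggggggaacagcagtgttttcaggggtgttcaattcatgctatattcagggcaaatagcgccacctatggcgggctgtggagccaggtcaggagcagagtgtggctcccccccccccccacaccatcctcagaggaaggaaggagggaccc
Cdkn2b promoter, chr4:89229270-89229519, minus strand: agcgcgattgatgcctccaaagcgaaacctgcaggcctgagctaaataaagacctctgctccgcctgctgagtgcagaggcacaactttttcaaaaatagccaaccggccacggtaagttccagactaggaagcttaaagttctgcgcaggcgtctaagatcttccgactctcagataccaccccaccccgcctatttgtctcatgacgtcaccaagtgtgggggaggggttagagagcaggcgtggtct
The Arf promoter held 2 copies of GGGCGG and the others held none, while 32.7% of the 32851 RefSeq promoters of this length held at least 1. CpG dinucleotides numbered 40 in the Arf promoter, 7 in the Ink4a promoter and 12 in the Cdkn2b promoter, against a median of 6 over all promoters. UMIs were counted per gene, so transcripts from the Arf and Ink4a starts cannot be told apart in the values below.

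The p53 consensus element, a pair of decamers without a spacer, was searched within 3000 bases on either side of the annotated gene start (GENCODE M39), allowing 1 mismatch outside the core bases. The core C and G of each decamer are in capitals.
Cdkn1a element, chr17:29309902-29309921, plus strand: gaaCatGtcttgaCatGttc
Cdkn2b element, chr4:89226637-89226656, minus strand: agaCatGtccggtCttGctc
Ccng1 element in an intron, chr11:40645763-40645782, minus strand: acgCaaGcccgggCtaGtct
Ccng1 element upstream, chr11:40646289-40646308, minus strand: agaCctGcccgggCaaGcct
Zmat3 element, chr3:32418480-32418499, minus strand: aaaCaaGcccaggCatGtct
A match was found near 210 of 21757 coding genes (0.965%), near 2 of the 10 genes described here and near 2 of 28 genes of a list of p53 targets. The Cdkn1a match was centered 24 bases before the annotated gene start. RefSeq also lists a second Cdkn1a promoter downstream (chr17:29312493-29312742), and the match is farther from that start. The Cdkn2b match lay in an intron 2630 bases after the Cdkn2b start. The Ccng1 matches were 376 bases after the start, in an intron, and 150 bases before it, and the Zmat3 match was without mismatch in an exon 1674 bases after the start. Longer spacers and more mismatches were not searched, so the window around Mdm2 without a match says only that these letters were not there.

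Cdkn2a, on chromosome 4 from 89192708 to 89212890 (minus strand), was abundant in N2a, lower in mESCs and nearly undetected in NIH/3T3. Its level was 73.8 CPM in N2a (69.9 to 77.9), 30.8 CPM in mESCs (27.7 to 34.02) and 0.513 CPM in NIH/3T3 (0.188 to 1.12). At least 1 UMI was found in 890 of 2323 N2a cells (38.3%), in 316 of 2137 mESCs (14.8%) and in 5 of 2037 NIH/3T3 cells (0.245%, exact binomial interval 0.0798% to 0.572%). After each cell was thinned to 1000 UMIs, to set the lines at 1 depth, the shares were 7.66%, 3.42% and 0.0491%. The BC1 sequences of N2a (48.5 to 118.8 CPM) and mESCs (15.1 to 55.5 CPM) overlapped. The 6 UMIs in NIH/3T3 fell in 4 of the 32 BC1 sequences, and the highest BC1 sequence (6.53 CPM) stayed below the lowest of N2a (48.5 CPM) and of mESCs (15.1 CPM). Cdkn2a in NIH/3T3 was thus 0.695% of its level in N2a (0.255% to 1.52%). It was 0.0167 times its level in mESCs (0.00608 to 0.0366). In the same NIH/3T3 cells, the N2a marker Hand2 reached 0.275% of its N2a level, Gata3 11.1% (5 UMIs) and Hand1 had 0 UMIs. The mESC markers Pou5f1, Zfp42 and Dppa5a reached 0.148%, 0.0908% and 0.624% of their mESC levels. Whether the 6 UMIs came from NIH/3T3 cells or were carried over from the other lines was not tested.

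Cdkn2b, from 89223204 to 89229276 (minus strand), was low in every line. It had 20 UMIs in N2a (1.11 CPM, 0.680 to 1.72), 23 in mESCs (1.87 CPM, 1.18 to 2.80) and 0 in NIH/3T3. A count of 0 allows up to 3 UMIs, or 0.256 CPM. The Cdkn2b level was 4.34-fold above that limit in N2a and 7.28-fold above it in mESCs. With the counting error of both lines, the exact conditional lower limits of the ratios to NIH/3T3 were 3.22 for N2a and 5.46 for mESCs. Most BC1 sequences of N2a and mESCs also lacked a UMI, since only 14 of 32 held one in either line, and the ranges of all lines therefore touched at 0.

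Cdkn2c, the INK4 gene on chromosome 4 from 109517957 to 109524386, was highest in NIH/3T3. Its level was 63.1 CPM in NIH/3T3 (58.6 to 67.8), 7.07 CPM in N2a (5.90 to 8.42) and 2.84 CPM in mESCs (1.98 to 3.95). NIH/3T3 was 8.92-fold above N2a (7.38 to 10.9) and 22.2-fold above mESCs (15.8 to 32.1). The BC1 sequences of NIH/3T3 spanned 10.0 to 87.0 CPM with a median of 61.6 CPM, which overlapped N2a (0 to 21.1 CPM) through 1 low BC1 sequence and lay above all of mESCs (0 to 9.61 CPM). At least 1 Cdkn2c UMI was found in 25.6% of NIH/3T3 cells, 4.95% of N2a cells and 1.64% of mESCs, and in 5.45%, 0.517% and 0.234% after thinning.

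Among the CIP/KIP genes, Cdkn1a was lowest in N2a and Cdkn1b was highest there. Cdkn1a, the main p53-induced CDK inhibitor, was at 121 CPM in NIH/3T3 (115 to 127), 35.6 CPM in N2a (32.9 to 38.5) and 96.6 CPM in mESCs (91.2 to 102). The BC1 sequences ranged from 14.4 to 65.6 CPM in N2a and from 76.8 to 180.5 CPM in NIH/3T3, without overlap, while those of mESCs (44.6 to 136 CPM) overlapped both. NIH/3T3 was 3.39-fold above N2a (3.09 to 3.73) and mESCs were 2.71-fold above N2a (2.46 to 2.99). Cdkn1b was at 51.3 CPM in NIH/3T3 (47.3 to 55.6), 93.1 CPM in N2a (88.7 to 97.6) and 45.5 CPM in mESCs (41.8 to 49.5). The BC1 sequences of NIH/3T3 (22.6 to 91.4 CPM) and mESCs (23.8 to 82.2 CPM) overlapped those of N2a (68.4 to 126 CPM), and the ratio of NIH/3T3 to mESCs, 1.13 (1.00 to 1.27), was at the edge of counting error.

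In the p53 axis, Trp53 and Mdm4 were highest in mESCs, and Mdm2 differed least between the lines. Trp53 was at 227 CPM in NIH/3T3 (218 to 236), 138 CPM in N2a (133 to 144) and 290.2 CPM in mESCs (281 to 299.9). The BC1 sequences of mESCs (207 to 345 CPM) just cleared those of N2a (98.7 to 206 CPM) and overlapped those of NIH/3T3 (172 to 288 CPM). Mdm4 was at 209 CPM in mESCs (201 to 218), 111 CPM in N2a (106 to 116) and 100.4 CPM in NIH/3T3 (94.7 to 106), and its BC1 ranges overlapped between all lines. Mdm2 was at 159 CPM in mESCs (152 to 166), 142 CPM in N2a (136 to 147) and 104 CPM in NIH/3T3 (98.3 to 110.0). Its BC1 ranges of 101 to 209, 72.0 to 165 and 67.7 to 179 CPM overlapped. In NIH/3T3, where Cdkn2a had 6 UMIs, Trp53 was thus 1.64 times its N2a level (1.55 to 1.73) and Mdm2 was 0.735 times its N2a level (0.686 to 0.787).

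One NIH/3T3 cell held 21 Mdm2 UMIs among only 1135 UMIs in all, more than any other cell of the 3 lines. After thinning to 1000 UMIs per cell, the variance of Mdm2 counts per cell was 2.45 times the mean in NIH/3T3, against 1.09 in N2a and 1.11 in mESCs. Without this cell, a step added after the values were seen, the ratio in NIH/3T3 was 1.10 and the line level 102 CPM. The counts of the other genes had ratios close to 1.

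Rb1, the target of the CDKs, was lowest in NIH/3T3, at 31.3 CPM (28.2 to 34.7) against 61.2 CPM in N2a (57.6 to 64.9) and 74.0 CPM in mESCs (69.3 to 79.0). The BC1 sequences of NIH/3T3 (9.03 to 56.4 CPM) overlapped those of N2a (36.7 to 81.8 CPM) and of mESCs (51.5 to 112 CPM). The plot of all 10 genes shows these spreads side by side.

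**Figure D1:**
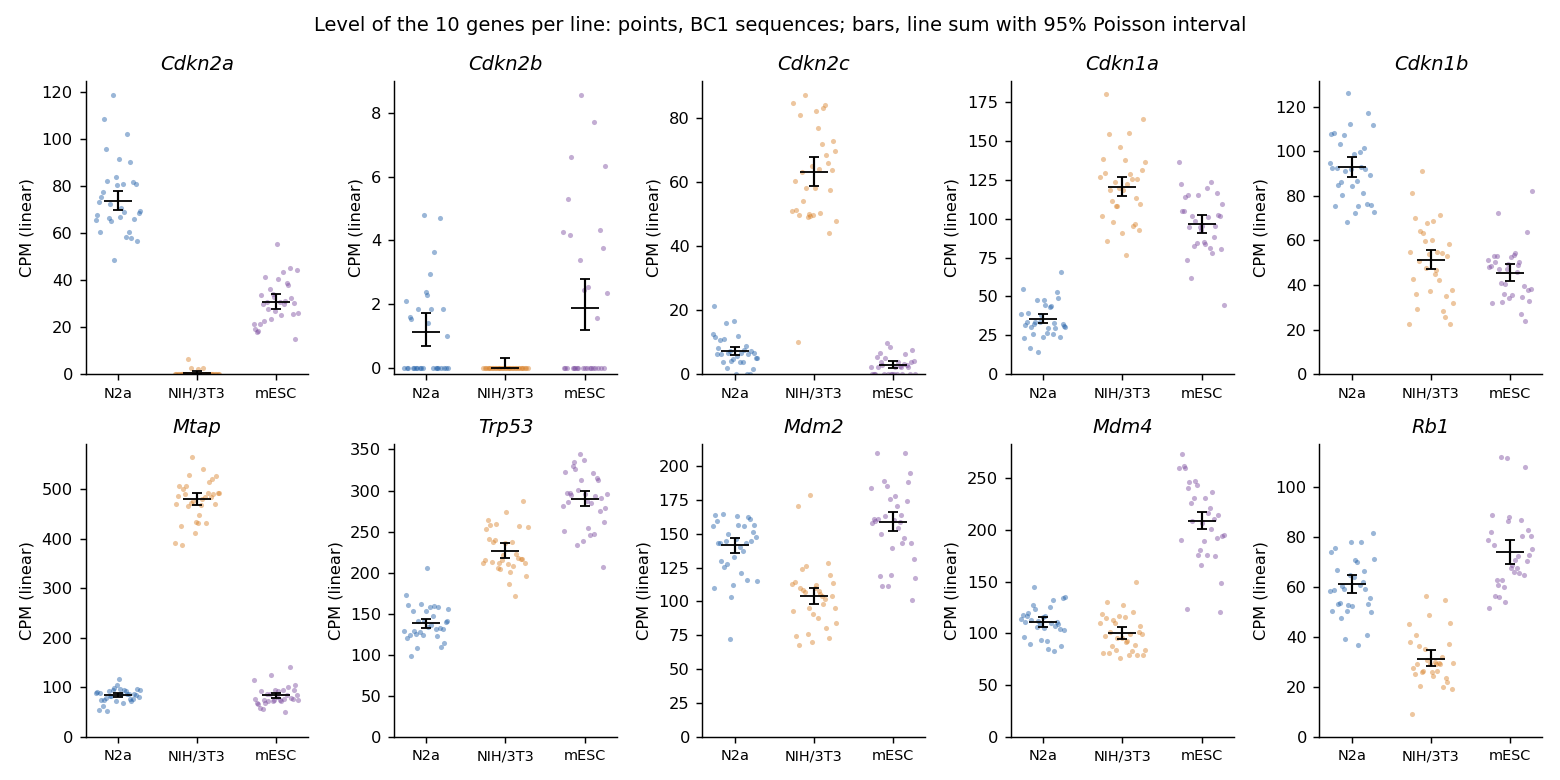
Level of the 10 genes in CPM on linear axes, with 1 panel per gene. Points are the 32 BC1 sequences of each line and black bars the line sum with its 95% Poisson interval; Cdkn2a points of NIH/3T3 lie at or near 0 while Mtap points of NIH/3T3 lie above all others (388 to 566 CPM).

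Calls between lines were read against all 13000 genes with at least 5 CPM in at least 1 line, of which 9 were among the 10 genes (Cdkn2b was below this level). A gene was past 2-fold when the ratio of CPM + 1 was at least 2. In NIH/3T3, 3 of the 9 genes (Cdkn2c, Cdkn1a and Mtap) were 2-fold above N2a, where 17.5% of all genes were, and 1 (Cdkn2a) was 2-fold below, where 19.2% were. In mESCs, 2 genes (Cdkn1a and Trp53) were 2-fold above N2a against 20.7% of all genes, and 3 (Cdkn2a, Cdkn2c and Cdkn1b) were 2-fold below against 21.5%. Between NIH/3T3 and mESCs, 2 genes (Cdkn2c and Mtap) were higher in NIH/3T3 against 20.7% and 3 (Cdkn2a, Mdm4 and Rb1) higher in mESCs against 22.8%. These counts of 1 to 3 of 9 genes were close to the shares over all genes. Of 9019 genes with at least 5 CPM in both N2a and mESCs, 3.16% were below 5% of both in NIH/3T3, and Cdkn2a was the only one of 8 such genes described here.

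Mtap, from 89055359 to 89099319 (plus strand), encodes the enzyme that cleaves methylthioadenosine in methionine salvage and is often deleted together with CDKN2A in human tumors. In NIH/3T3 it was not low but the highest of the 3 lines, at 481 CPM (468 to 493) against 83.9 CPM in N2a (79.7 to 88.2) and 84.0 CPM in mESCs (79.0 to 89.3). This was 5.73-fold above N2a (5.41 to 6.07), and the 32 BC1 sequences of NIH/3T3 (388 to 566 CPM) lay above all of N2a (51.8 to 117 CPM) and mESCs (50.2 to 141 CPM). The share of cells with a Mtap UMI was 83.0% in NIH/3T3, 41.6% in N2a and 34.4% in mESCs, and 37.2%, 7.79% and 8.28% after thinning, where the intervals of N2a (6.73% to 8.96%) and mESCs (7.15% to 9.53%) overlapped.

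The genes around Cdkn2a were measured to see how far the low levels extended. On the lower-coordinate side, the lncRNA genes Gm49890 (88828091 to 88857258), Gm49891, Wincr1 and Gm12602 (89018101 to 89046819) were nearly restricted to NIH/3T3. Gm49890 was at 296 CPM in NIH/3T3, 0.111 CPM in N2a and 1.14 CPM in mESCs, and Wincr1 was at 258, 0.780 and 0.162 CPM. Gm12602, the nearest listed gene before Mtap, was at 62.1 CPM in NIH/3T3 and 0.334 CPM in N2a with 0 UMIs in mESCs, and Gm49891 was at 10.7 CPM in NIH/3T3 and below 0.1 CPM in both others. Beyond Mtap, Gm12606 (89153936 to 89191640) had 18 UMIs in N2a, 3 in mESCs and 0 in NIH/3T3. Cdkn2a followed at 0.513 CPM, and Gm12610 (89213049 to 89452672, plus strand), which overlaps Cdkn2b on the other strand, was at 2.74 CPM in NIH/3T3 against 207 CPM in N2a and 57.0 CPM in mESCs (1.32% of N2a, 0.901% to 1.86%). The strand setting of the counting is not given in the sources used here, so reads of Gm12610 and Cdkn2b may not be fully separated.

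Past Cdkn2b, the next gene with at least 1 CPM was Zfp352, with 45 UMIs in mESCs and 0 in the other lines. Elavl2 (91138905 to 91289022), an RNA-binding protein gene, was again detected in NIH/3T3 at 61.5 CPM (57.1 to 66.1) against 117 CPM in N2a and 134 CPM in mESCs. Gm12666 (92078981 to 92079986) had 154 UMIs in N2a, 82 in mESCs and 0 in NIH/3T3, and Tusc1 had 20, 14 and 1. The genes from Gm12606 to Zfp352, which were at 2.74 CPM or less in NIH/3T3, thus lay between the end of Mtap at 89099319 and the start of Elavl2 at 91138905. Of these genes only Cdkn2a and Gm12610, from 89192708 to 89452672, reached 5 CPM in another line. The others were below 5 CPM in every line and say little on how far the low levels extended. Within 5 Mb on the lower-coordinate side 21 of 59 listed genes were tested, of which 9 were 2-fold above both other lines in NIH/3T3 and 1 below both, where 10.5% and 9.38% of all genes were. The gene below both was Acer2, with 47.0 CPM in mESCs, 3.12 CPM in N2a and 0.0855 CPM in NIH/3T3. On the other side 4 of 16 were tested, of which 2 were below both (Gm12610 and Gm12666) and 1 above both (Gm12648, at 603 CPM in NIH/3T3, 4.79 CPM in N2a and 1.14 CPM in mESCs). Acer2 and Gm12648 are named after their values were seen. DNA was not measured, so loss of sequence and absence of transcription cannot be told apart.

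**Figure D2:**
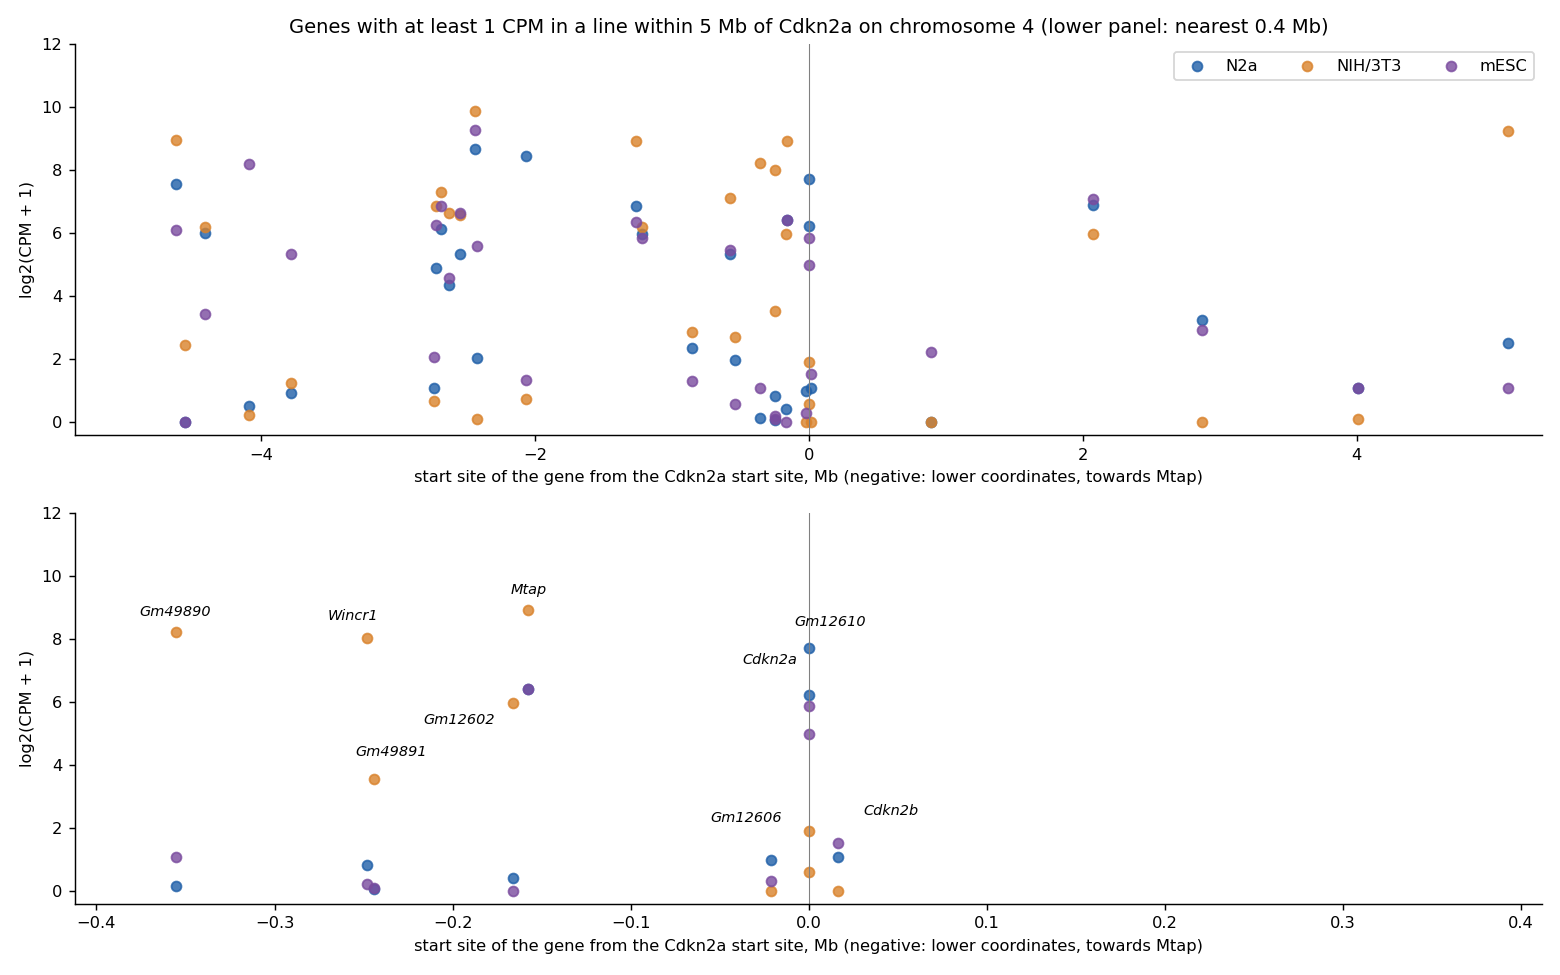
log2(CPM + 1) of genes with at least 1 CPM in a line against the distance of their start site from that of Cdkn2a, for all such genes within 5 Mb of Cdkn2a (upper panel) and for those within 0.4 Mb (lower panel). Each color is a line with 1 sample. In the lower panel the NIH/3T3 points are above the other lines up to Mtap and below both from Gm12606 to Cdkn2b.

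The kinases and cyclins that these inhibitors act on also differed between the lines. Of these 8 genes, Ccnd2 and Cdk6 were nearly absent from N2a, with Ccnd2 at 318 CPM in NIH/3T3, 0.167 CPM in N2a and 3.00 CPM in mESCs and Cdk6 at 261, 0.668 and 104 CPM. Ccnd1, the cyclin D1 gene, was at 601 CPM in NIH/3T3 against 74.9 CPM in N2a and 58.4 CPM in mESCs. In this list 3 genes were 2-fold higher in NIH/3T3 than in N2a and 1 lower, against 17.5% and 19.2% of all genes, with a median log2 difference of 0.00 over the 8 genes and -0.04 over all genes. Between mESCs and N2a the counts were 4 and 1 (20.7% and 21.5% of all genes) with a median of 0.83, and between NIH/3T3 and mESCs 3 and 3 (20.7% and 22.8%) with a median of 0.59. The 3 other CDK inhibitor genes were at 27.6 CPM or less in each line. Cdkn2d was at 16.2, 15.4 and 18.2 CPM in NIH/3T3, N2a and mESCs, Cdkn3 at 27.6, 10.97 and 18.1 CPM, and Cdkn1c had 0, 8 and 27 UMIs, so that 1 of the 2 tested genes was 2-fold higher in NIH/3T3 than in N2a and none past 2-fold in the other pairs.

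The lists below are read against all 13000 genes, of which 36.7% were past 2-fold between NIH/3T3 and N2a, 42.2% between mESCs and N2a and 43.5% between NIH/3T3 and mESCs. Around Rb1, 14 of 16 genes for pocket proteins, E2F factors and their partners stayed within 2-fold between NIH/3T3 and N2a, and 13 of 16 in each of the other pairs. The exception of largest size was E2f6, a repressive E2F, at 0.171 CPM in NIH/3T3 (2 UMIs), 13.0 CPM in N2a and 17.5 CPM in mESCs. E2f7 was at 68.0 CPM in NIH/3T3, 126 CPM in N2a and 43.8 CPM in mESCs, and Tfdp2, a partner of E2F proteins, at 55.0, 68.0 and 155 CPM. Median log2 differences of this list were -0.48 for NIH/3T3 minus N2a, -0.23 for mESC minus N2a and -0.21 for NIH/3T3 minus mESC, against -0.04, -0.03 and -0.02 over all genes. The 8 genes for degradation of CIP/KIP proteins included Dtl, at 126 CPM in NIH/3T3, 375 CPM in N2a and 219 CPM in mESCs, Cul4a at 65.4, 140.5 and 49.0 CPM and Ddb1 at 246, 109.5 and 251 CPM, which together form a ubiquitin ligase for Cdkn1a. Of this list, 1 gene was 2-fold higher and 2 lower in NIH/3T3 than in N2a, 1 higher and 1 lower in mESCs than in N2a, and none past 2-fold between NIH/3T3 and mESCs (0 genes).

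Of 18 regulators of p53, 16 were tested. Trp53bp2, which binds p53 and promotes its apoptotic activity, was at 31.2 CPM in NIH/3T3, 204 CPM in N2a and 34.2 CPM in mESCs. Usp7, a deubiquitinase of Mdm2 and p53, was at 184 CPM in NIH/3T3, 195 CPM in N2a and 637 CPM in mESCs, and the deacetylase gene Sirt1 at 21.0, 39.8 and 119.5 CPM. In mESCs 4 of the 16 genes were 2-fold above N2a and 2 below, against 20.7% and 21.5% of all genes. In NIH/3T3 none was above N2a and 2 were below, against 17.5% and 19.2%, and between NIH/3T3 and mESCs 1 was higher and 2 lower, against 20.7% and 22.8%.

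Genes that p53 is known to induce were lowest as a group in N2a. Of 27 tested targets, 14 were at least 2-fold higher in mESCs than in N2a and 1 was lower, where 20.7% and 21.5% of all genes were, with a median log2 difference of 1.07 against -0.03 over all genes. Between NIH/3T3 and N2a, 7 were higher and 3 lower (17.5% and 19.2% of all genes), with a median of 0.41 against -0.04. Between NIH/3T3 and mESCs 2 were higher and 10 lower (20.7% and 22.8%), with a median of -0.68 against -0.02. The summed level of the list was 1216 CPM in NIH/3T3, 787 CPM in N2a and 1652 CPM in mESCs. This is the order of Trp53 itself, but not of Cdkn1a, which was highest in NIH/3T3. The lists of cell cycle genes used below were also higher in mESCs than in N2a. Of 50 G2/M genes 20 were 2-fold higher and 0 lower (median 0.81), and of 36 S-phase genes 11 and 2 (median 0.42). Between NIH/3T3 and N2a these counts were 7 and 0 (0.46) and 2 and 2 (-0.02). Psrc1 is in both the p53 target list and the G2/M list. The p53 target list was described and not tested, and 3 lines give no relation across samples.

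The members of the list did not share 1 order. Eda2r, a receptor of the TNF receptor family, had 1 UMI in N2a (0.0557 CPM) but was at 65.2 CPM in mESCs and 47.2 CPM in NIH/3T3. Plk2, a polo-like kinase, was at 140.0 CPM in NIH/3T3, 0.223 CPM in N2a and 23.7 CPM in mESCs. Trp53inp1, a p53 cofactor that acts in autophagy and cell death, was at 2.34 and 4.36 CPM in N2a and NIH/3T3 and at 106 CPM in mESCs. Ccng1, whose matches to the p53 element are printed above, was at 151 CPM in NIH/3T3, 24.1 CPM in N2a and 181 CPM in mESCs. Zmat3, with its match without mismatch, was at 43.8, 69.8 and 73.9 CPM. Both Ccng1 and Zmat3 are named for these matches and not for their rank. Gdf15, a stress-induced cytokine, was also chosen after its values were seen, as the largest difference in the other direction, with 0.171 CPM in NIH/3T3, 23.6 CPM in N2a and 9.09 CPM in mESCs.

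**Figure D3:**
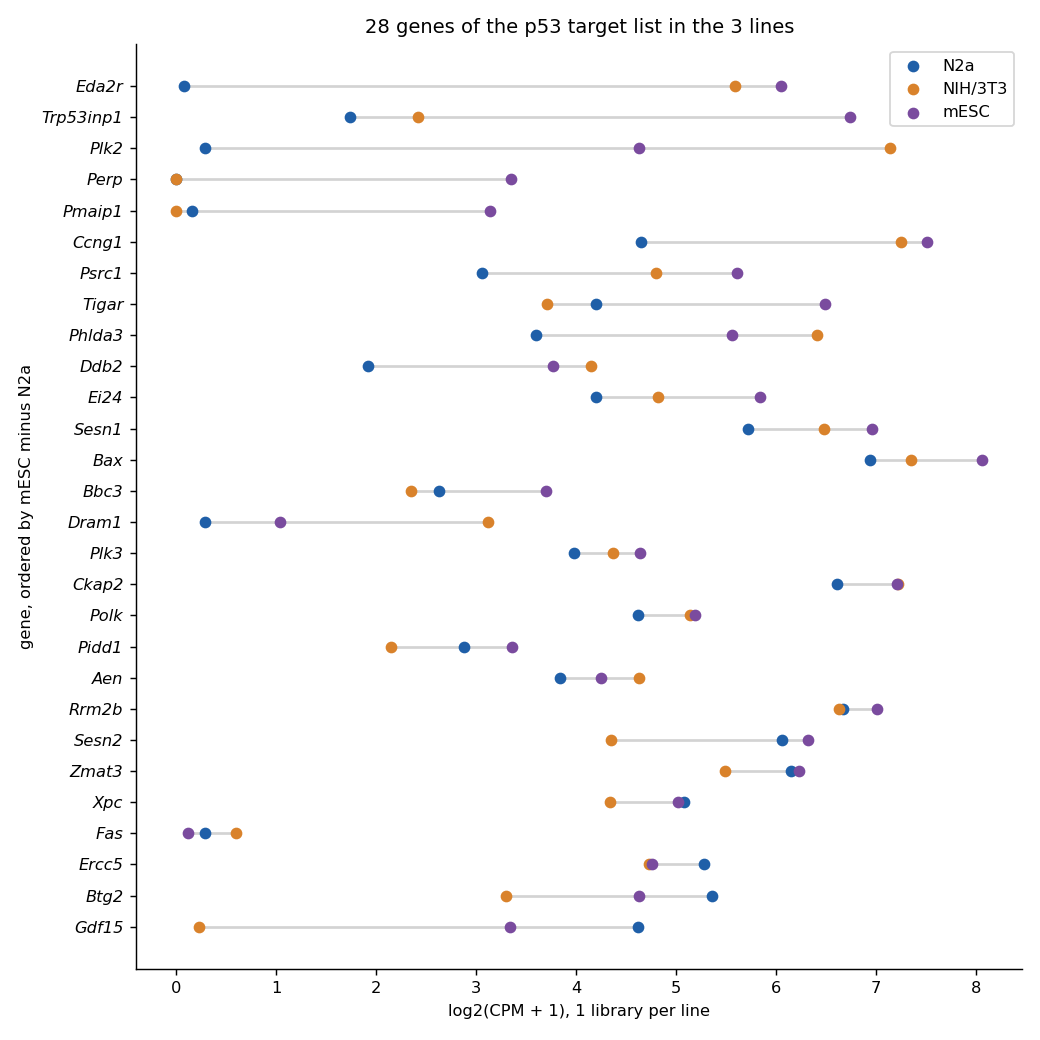
log2(CPM + 1) of the 28 p53 target genes in each line, 1 sample per line, ordered by the difference of mESCs from N2a. Most mESC points lie right of the N2a points (14 of 27 tested genes at least 2-fold), and the lines at Eda2r, Plk2 and Gdf15 are the longest for NIH/3T3 against N2a.

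In the methionine salvage and polyamine list around Mtap, 3 of 10 genes were 2-fold higher in NIH/3T3 than in N2a and none lower, against 17.5% and 19.2% of all genes, and the median log2 difference was -0.04 both in the list and over all genes. These included Adi1, which acts late in salvage, at 72.3 CPM in NIH/3T3, 10.97 CPM in N2a and 40.7 CPM in mESCs, and Mri1 at 28.7, 12.0 and 21.8 CPM. Apip was at 29.8, 18.5 and 48.8 CPM. Between mESCs and N2a 2 were higher (20.7% of all genes), and between NIH/3T3 and mESCs none was past 2-fold (0 genes).

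To see whether the inhibitors varied with the cell cycle, the 20% of cells of each line with the largest share of UMIs in a list of 50 G2/M genes were taken as G2/M-high, and as many of the remaining cells with the largest share in 36 S-phase genes as S-high. These ranges are cut from a score and are not phases; 169 NIH/3T3 cells, 378 N2a cells and 364 mESCs had a G2/M share within 10% of the limit. For the S share the numbers were 334, 255 and 448, the last larger than the 427 S-high mESCs. Median UMIs per cell of the ranges were 4286 to 5410 in NIH/3T3 and mESCs and 6042 to 6414 in N2a. Cells of 1 library are not replicates, so the values are a description.

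Cdkn2c in NIH/3T3 was the only one of the 8 or 9 tested genes that was 2-fold higher in a range than in the rest. Its level was 105 CPM in G2/M-high cells (93.2 to 118), 61.1 CPM in S-high cells (51.3 to 72.3) and 47.6 CPM in the rest (42.6 to 53.1), where 1.64% of all genes were 2-fold higher in G2/M-high cells than in the rest. The corresponding share was 0.756% in N2a and 0.289% in mESCs, and for S-high cells it was 0.423% in NIH/3T3, 1.01% in N2a and 0.207% in mESCs, with 0 of the genes described here. In N2a the Cdkn2c levels in G2/M-high, S-high and other cells were 9.10, 10.8 and 5.18 CPM, and in mESCs 1.53, 2.76 and 3.32 CPM, the last with 4 to 25 UMIs. Cdkn1b was also higher in the G2/M-high range of each line, at 77.3 CPM against 45.3 CPM in the rest in NIH/3T3, 113 against 86.6 CPM in N2a and 58.5 against 43.5 CPM in mESCs, and these intervals did not overlap (67.0 to 88.8 and 40.4 to 50.6 CPM in NIH/3T3, 102 to 124 and 81.2 to 92.3 CPM in N2a, 49.6 to 68.5 and 38.96 to 48.5 CPM in mESCs). With the top 10% of cells in place of 20%, the mESC intervals overlapped (48.95 to 77.3 and 40.7 to 48.98 CPM), and those of the other lines did not. Mdm4 in NIH/3T3 was at 129 CPM in G2/M-high cells (116 to 144) and 79.9 CPM in S-high cells (68.6 to 92.5), but with the top 10% of cells these intervals overlapped (111 to 149.7 and 77.1 to 116.5 CPM). Against the rest (88.9 to 103.8 CPM) the G2/M-high interval of Mdm4 was apart. It was also apart from the rest with the top 10% of cells (90.5 to 103.2 CPM in the rest).

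By its CPM, Cdkn1a was highest in S-high cells in N2a and NIH/3T3 and lowest there in mESCs. Only in N2a did the S-high interval stay apart from the others with the top 10% of cells. In N2a it was highest in S-high cells, at 54.4 CPM (47.0 to 62.7) against 24.5 CPM in G2/M-high cells (19.7 to 30.2) and 33.2 CPM in the rest (29.8 to 36.8). In mESCs it was lowest in S-high cells, at 74.1 CPM (63.1 to 86.5) against 108 CPM in G2/M-high cells (95.6 to 121) and 99.2 CPM in the rest (92.2 to 106), but with the top 10% of cells the S-high interval (64.4 to 102.0 CPM) overlapped those of the G2/M-high cells (84.8 to 120.8) and of the rest (91.4 to 103.6). In NIH/3T3 it was at 103 CPM in G2/M-high, 135 CPM in S-high and 123 CPM in the other cells, with overlapping intervals between the S-high range and the rest. The G2/M-high and S-high intervals were apart (91.4 to 116.5 and 120.4 to 151.3 CPM). With the top 10% of cells these also overlapped (87.75 to 122.8 and 122.8 to 171.2 CPM). For Cdkn2a the intervals of the ranges overlapped in N2a (69.5, 82.9 and 72.3 CPM) and in mESCs (27.1, 35.4 and 30.7 CPM). Overlap of separate intervals does not show that levels were equal, and intervals of the ratios between ranges were not calculated. Rb1 in mESCs was lower in G2/M-high cells, at 54.3 CPM (45.7 to 64.0), than in the rest, at 80.0 CPM (73.8 to 86.7). Mtap in NIH/3T3 was at 547 CPM in S-high cells (517 to 579), 423 CPM in G2/M-high cells (398 to 448) and 481 CPM in the rest (465 to 498), and these intervals were also apart with the top 10% of cells.

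**Figure D4:**
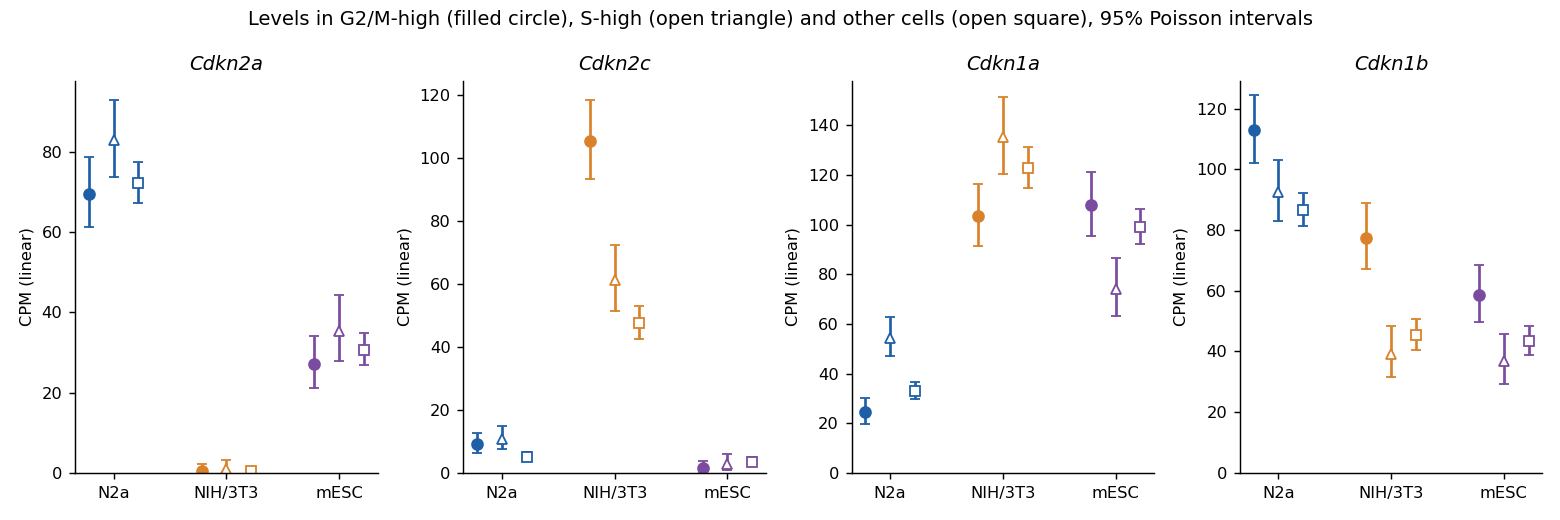
CPM on linear axes of 4 CDK inhibitor genes in G2/M-high, S-high and other cells of each line, with 95% Poisson intervals. Cdkn2c in NIH/3T3 lies at 105 CPM in G2/M-high cells against 47.6 CPM in the other cells, and Cdkn1b is highest in the G2/M-high cells of each line.

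Finally, cells with a Cdkn1a UMI were set against cells without one, to see whether other p53 targets were higher in the same cells. Cells with a UMI were deeper, with medians of 9000 against 5633 UMIs in N2a, 6319 against 3882 in NIH/3T3 and 6372 against 4037 in mESCs, and levels were therefore compared as CPM. The p53 target list, which leaves out Cdkn1a, was at 817 CPM in N2a cells with a Cdkn1a UMI (791 to 843) and 777 CPM in those without (762 to 792). In NIH/3T3 the levels were 1295 CPM (1266 to 1324) and 1137 CPM (1109 to 1164), and in mESCs 1729 CPM (1694 to 1763) and 1587 CPM (1557 to 1618). Of the tested targets 1 of 23 in NIH/3T3, 0 of 20 in N2a and 0 of 26 in mESCs were 2-fold higher in cells with a UMI, where 0.0673%, 0.168% and 0.0726% of all genes were.

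Mdm2 and Ccng1 were higher in cells with a Cdkn1a UMI in mESCs, beyond counting error, and in N2a their intervals overlapped. Mdm2 was at 179.8 CPM in mESCs with a Cdkn1a UMI (169 to 191) and 141 CPM in those without (132 to 151), and at 142.0 and 141 CPM in N2a. Ccng1 was at 204 CPM (192 to 216) and 162 CPM (152 to 172) in mESCs, at 181 CPM (170.3 to 192) and 121 CPM (112 to 130.3) in NIH/3T3 and at 25.4 CPM (21.0 to 30.4) and 23.6 CPM (21.1 to 26.4) in N2a. Mdm2 in NIH/3T3 was at 111 CPM (103 to 120) and 96.8 CPM (89.0 to 105), with overlapping intervals. Trp53 was at 154 CPM (143 to 166) and 133 CPM (127 to 139) in N2a, with no overlap, and its intervals overlapped in the other lines. These differences between lines were not tested.

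Since cells with a UMI were deeper, the cells were also regrouped after thinning to 1000 UMIs, which left 192 NIH/3T3 cells, 87 N2a cells and 191 mESCs with a Cdkn1a UMI. Of the 6 differences whose intervals were apart in all UMIs, 3 were still apart. These were the target list in mESCs (1792 to 2197 against 1567 to 1681 CPM), Mdm2 in mESCs (176.5 to 322 against 121 to 155 CPM) and Ccng1 in NIH/3T3 (162 to 302 against 118 to 152 CPM). The intervals overlapped for the target list in NIH/3T3 (1142 to 1470 and 1145 to 1246 CPM), Ccng1 in mESCs (154 to 291.5 and 159 to 196.5 CPM) and Trp53 in N2a (79.7 to 255.8 and 113 to 143 CPM). Their levels with and without a Cdkn1a UMI were 1298 and 1195, 215 and 177, and 149.6 and 127 CPM. Thinning also cut the counts, such as Trp53 in N2a cells with a Cdkn1a UMI from 711 to 13 UMIs. Overlap after thinning therefore does not show that a difference went away.

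**Figure D5:**
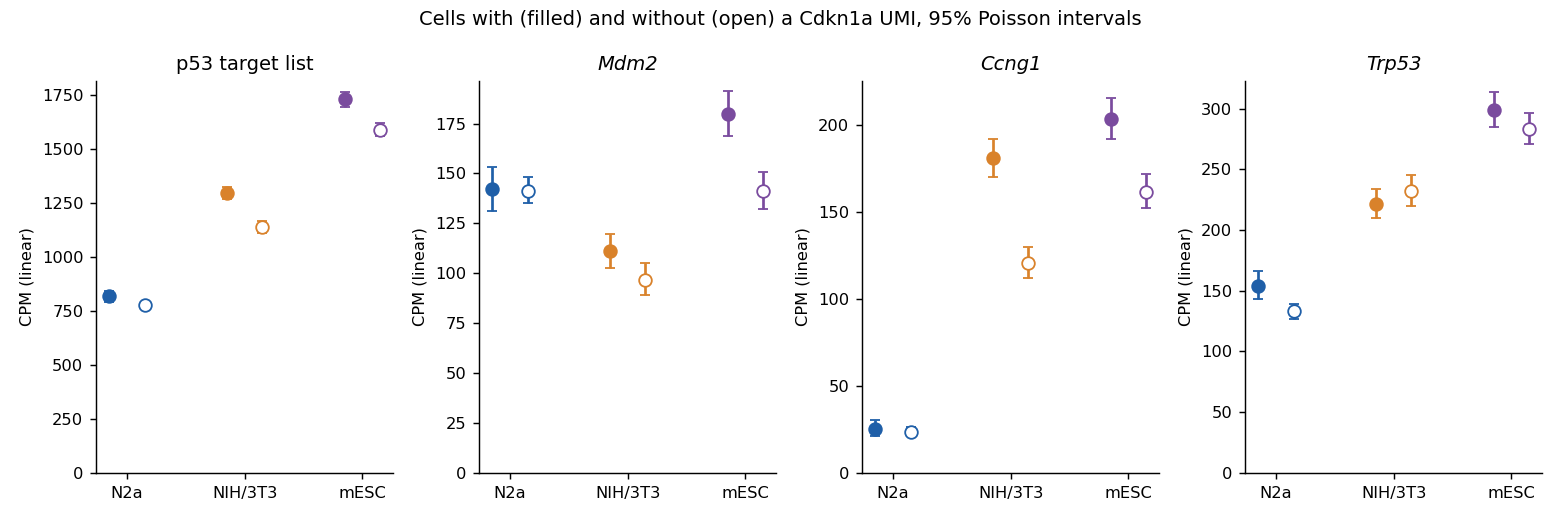
CPM on linear axes in cells with (filled) and without (open) a Cdkn1a UMI, with 95% Poisson intervals, for the p53 target list, Mdm2, Ccng1 and Trp53. Ccng1 in NIH/3T3 lies at 181 against 121 CPM, and Mdm2 in N2a at 142.0 against 141 CPM.

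The genes with the levels most like those of each gene over the 3 lines, by the summed absolute difference of log2(CPM + 1), were Hap1 (0.11) and Prickle2 (0.18) for Cdkn2a. For Mtap they were Mllt3 (0.53), which lies on the same chromosome from 87687837 to 87951610 and was at 116, 481.5 and 80.2 CPM in N2a, NIH/3T3 and mESCs, and Cst3 (0.65). For Cdkn2c they were Flnc (0.29) and Slc39a13 (0.38), for Cdkn1a Tnrc18 (0.32) and Ehd1 (0.43), and for Cdkn1b Lsm1 (0.20) and Gpat4 (0.22). For Trp53 they were Psip1 (0.14) and Mcm4 (0.18), for Mdm2 Slc39a11 (0.15) and Mrps5 (0.19), for Mdm4 Cep192 (0.14) and Itga6 (0.23), and for Rb1 Chaserr (0.22) and Slc20a1 (0.32). With 3 lines such likeness is a description only.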

How the data were processed

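Single-cell RNA of 3 mouse lines was measured in 1 CapSeq library. The authors split the reads by BC1, trimmed the template switch sequence, and used STARsolo for alignment to GRCm39 (annotation GENCODE M30) and counting. They deposited 4 matrices, 1 pooled and 1 per line, whose values are UMI counts of each gene in each barcode, neither normalized nor filtered for cells. The strand and feature settings of the counting are not given in the sources used here. The pooled matrix came from the same reads and served only as an alternative.

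From these counts, barcodes with 1000 or more UMIs, no more than 20% of them mitochondrial, were summed per line and scaled to CPM. Depth was 11697865 to 17955221 UMIs per line, and intervals at the 95% level are exact Poisson (levels), exact conditional (ratios) and exact binomial (shares). A count of 0 was taken to allow 3 counts. Folds between lines used CPM + 1 among genes with at least 5 CPM in 1 line. With 1 sample per line no test was made. For shares and variances, cells were thinned to 1000 UMIs with a fixed seed. Doublets were not called; the files carry no annotation of them. Positions came from GENCODE M39 on GRCm39 for 32953 of 33565 genes, and promoters from RefSeq on GRCm38.p6. The steps were tested on simulated data with known folds.

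The 10 genes and the gene lists were chosen with earlier results of these data known. Other genes named are the 6 nearest to Cdkn2a on each side with at least 1 CPM in a line, the 3 largest differences per list, the markers, and the 2 nearest profiles per gene. Ccng1, Zmat3, Gdf15, Acer2 and Gm12648 are outside this rule and were named after their values were seen. Alternatives changed the cell filter and calling rule, the scaling, the pseudocount, the fold, the minimum level, the depth per cell and the size of the cycle ranges. Calculations used scipy 1.17.1, numpy 2.4.6 and pandas 2.3.3 in Python 3.11.15, and plots matplotlib 3.10.9.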

Additional observations from a re-analysis of the deposited data

Results flagged for a closer look

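The barcodes of the NIH/3T3 matrix that did not pass the cell filter, which no comparison above uses, held 4 Cdkn2a UMIs among 1807162 UMIs. This is 2.21 CPM (exact Poisson interval 0.603 to 5.67), above the 1.66 CPM that a count of 0 allows there and above the 0.513 CPM in the NIH/3T3 cells, although the intervals overlap. Cdkn2b had 0 UMIs in the same barcodes, and Cdkn2a was at 68.7 CPM in those of N2a and 23.8 CPM in those of mESCs. The source of the 4 UMIs was not tested.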

How the results depend on the processing

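No paired analysis was possible because each line had 1 sample, so the lines share fewer than 2 replicate numbers. Of the levels under the alternatives, 298 stayed inside the counting interval and 3 did not. With the mean of per-cell CPM, Cdkn2c in NIH/3T3 was 58.5 and Mdm2 115 CPM, and without mitochondrial genes Mtap was 494 CPM. Of the log2 differences, 351 kept their side of 2-fold and 0 of those past 2-fold changed direction. Mtap mESC minus N2a, near 0, changed sign in 5 alternatives (0.0020 to -0.039 at most). Cdkn2b NIH/3T3 minus N2a was -0.95 with the mean of per-cell CPM and -0.29 with a pseudocount of 5 CPM, where minus mESC it was -0.46. Cdkn2c mESC minus N2a was -0.92 over all barcodes, -0.98 without the 5% of cells with the most UMIs and -0.62 with a pseudocount of 5 CPM, and Cdkn1b was -0.98 with median-of-ratios scaling and -0.96 with that pseudocount. Rb1 NIH/3T3 minus N2a was -1.05 with the mean of per-cell CPM. At 1.5-fold 7 genes instead of 4 differed between NIH/3T3 and N2a. At 4-fold 0 instead of 5 differed between mESCs and N2a and 3 instead of 5 between NIH/3T3 and mESCs, and with a pseudocount of 5 CPM 3 instead of 5 differed between mESCs and N2a. Over all barcodes Gm12610 in NIH/3T3 was 1.90% of N2a. After thinning, the order of the lines by share of cells held for 5 of 10 genes, the others being Cdkn2b, Mtap, Mdm2, Mdm4 and Rb1, and the ratio of the p53 target list in cells with to cells without a Cdkn1a UMI was 1.09 instead of 1.14 in NIH/3T3 and 1.22 instead of 1.09 in mESCs. Without the cell with the most Mdm2 UMIs, chosen after seeing the data, the variance-to-mean ratio was 1.10 instead of 2.45. Of 27 differences between cycle ranges with intervals apart, 17 were still apart with the top 10% of cells. The causes were not tested. Depth limits Cdkn2b and the 6 Cdkn2a UMIs of NIH/3T3.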
